A study of Mus musculus with 4 samples.

Results

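The acid-base and cation-chloride transporter genes were taken as the protein-coding genes of a RefSeq mouse gene table (GRCm38.p6, the same assembly as mm10) whose symbol is Slc4a, Slc8a, Slc9a, Slc12a, Slc20a or Slc26a followed only by digits. Slc4a1, Slc4a9, Slc12a1, Slc12a3 and Slc26a4 were left out by the rule. This gave 39 of 21887 protein-coding genes, in 6 families: 10 Slc26a, 9 Slc9a, 8 Slc4a, 7 Slc12a, 3 Slc8a and 2 Slc20a genes. Peak values played no part in the rule, and each gene was scored in every library by its peaks within 1 kb of either outermost gene end, by those further inside the gene, and by those outside it within 50 kb.

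The chromatin was that of mpkCCD clone 11 cells, an immortalized mouse line of 1 clone derived from the cortical collecting duct, profiled by ATAC-seq, in which a transposase inserts adapters into exposed DNA. Confluent cells on permeable supports received 0.1 nM dDAVP, an agonist selective for the V2 vasopressin receptor, or vehicle for 30 min, both in medium free of serum and hormones. There were 2 dDAVP and 2 vehicle libraries of 50000 cells each, with no genetic change stated for either. The labels do not say that the replicates were separate cultures, so any spread between them may be technical.

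These families move protons, bicarbonate, chloride, potassium, calcium, phosphate and sulfate across cell membranes and so set cell pH, cell volume and the salt and acid transport of epithelia. In the kidney each nephron segment is known for its own set: Slc9a3 and Slc4a4 carry out bicarbonate reabsorption in the proximal tubule, whereas Slc12a2 and the chloride/bicarbonate exchanger Slc4a2 are basolateral carriers of more distal cells. Several of the carriers are switched by kinases of the Wnk family, which act through Stk39 and Oxsr1 on the Slc12a cotransporters.

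The peak lists held 291454 and 205771 peaks for dDAVP replicates 1 and 2, against 393956 and 206972 for vehicle replicates 1 and 2. A gene-end peak was present at 74.2% and 69.4% of all genes in the dDAVP libraries and at 78.2% and 70.0% in the vehicle libraries. Each list gives peak positions only, so the measures were presence, number and width of peaks, the sequencing depth is unknown, and a gene without a listed peak is not shown to be closed. Gene-end peaks were present in all 4 libraries at 8 of 14 principal cell markers, among them Aqp2 and Scnn1a, at 4 of 10 intercalated cell markers, at 4 of 8 thick limb and distal convoluted tubule markers, at 4 of 8 proximal tubule markers and at 4 of 11 markers of podocytes, endothelium, stroma and leukocytes. The share over all genes was 65.0%, against 57.1% of the principal cell markers. Of the other principal cell markers, Aqp3, Avpr2 and Scnn1b had an end peak in 2 libraries and Tfap2b in 1. Neither Aqp4 nor Kcnj1, further principal cell markers, had a peak at a gene end. Open gene ends were thus found among the markers of other segments and cell types as well.

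Most of the transporter genes had an open gene end. A peak lay within 1 kb of a gene end in all 4 libraries at 28 of 39 transporter genes, which is 71.8%, against 65.0% of all protein-coding genes. By library, 33 and 28 of the 39 had one after dDAVP, against 34 and 30 with vehicle. The 28 genes of dDAVP replicate 2, the shortest list, were the same 28 genes. On the chromosomes X, 18, 7, 4 and 13, where the genome-wide median density of peaks inside genes was at most 0.168 per 10 kb in every library, 5 of 9 transporter genes were open in all libraries, against 47.7% of all genes there. On the other chromosomes 23 of 30 were, against 71.0% of all genes. These 5 chromosomes were chosen after their values were seen. No test was made of the difference between the transporter genes and all genes.

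The plasma membrane sodium/proton exchangers were open at 4 of 5 genes. Slc9a5, known mainly from brain, had the widest end peak of its family, at 1536 and 1558 bp after dDAVP, against 1489 and 1629 bp with vehicle, with a mean of 1553 ± 58.3 bp (SD over all 4 libraries). That end lies within 1 kb of an end of Fhod1, so the peak cannot be assigned to Slc9a5 alone. Slc9a2, an exchanger of epithelia, had peaks of 1096 and 1078 bp after dDAVP, against 1221 and 898 bp with vehicle. Slc9a4, an exchanger known from stomach and basolateral membranes, had narrow peaks of 130 and 647 bp after dDAVP, against 222 and 152 bp with vehicle. Slc9a3, the apical exchanger of the proximal tubule, had no peak at either end in any of the 4 libraries.

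The endosomal and Golgi exchangers were open at 3 of 4 genes. Slc9a8 had the widest end peak of this group, at 1101 and 992 bp after dDAVP, against 972 and 932 bp with vehicle. Here both dDAVP values were above both vehicle values. The log2 difference in width, dDAVP over vehicle, was 0.19 (SE 0.28), and it did not pass the width test given further on. Slc9a7, on chromosome X, had a narrower mean of 250 ± 81.4 bp (SD over all 4 libraries), the lowest among the 28 genes open in all libraries. Slc9a9 had a single end peak of 72 bp, in dDAVP replicate 1.

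Among the sodium-coupled bicarbonate transporters only 2 of 5 genes, Slc4a7 and Slc4a8, had a gene-end peak in every library. Slc4a7 had end peaks of 1347 and 1283 bp after dDAVP, against 1342 and 1371 bp with vehicle. Its mean of 1336 ± 37.4 bp (SD over all 4 libraries) was among the least variable of the set. Slc4a8 had peaks of 1053 and 930 bp after dDAVP, against 1034 and 847 bp with vehicle, at its lower-coordinate end, which is its listed start, and the treatments overlapped. Slc4a4, the electrogenic cotransporter of the proximal tubule, had gene-end peaks of 115 bp in dDAVP replicate 1 and 145 bp in vehicle replicate 1 and none in the replicate 2 libraries. Slc4a5, another electrogenic cotransporter, had no end peak in either dDAVP library and peaks of 315 and 125 bp in the vehicle libraries. Slc4a10 had a peak of 234 bp in dDAVP replicate 1 only.

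Both chloride/bicarbonate exchangers were open in every library. Slc4a2 had end peaks of 1045 and 1102 bp after dDAVP, against 1020 and 876 bp with vehicle, at an end within 1 kb of Cdk5. At its lower-coordinate end, where its listed start lies, Slc4a3 had peaks of 931 and 783 bp after dDAVP, against 921 and 999 bp with vehicle, and the treatments overlapped. At its other end Slc4a3 had 953 and 875 bp after dDAVP, against 339 and 517 bp with vehicle. There both dDAVP values were above both vehicle values, with a log2 difference of 1.22 (SE 0.43) and a limma adjusted p of 0.945 over all regions, which did not pass 0.05. Slc4a11, a member of the same family whose loss in humans affects the corneal endothelium, had wide peaks of 1639 and 1453 bp after dDAVP, against 1460 and 1365 bp with vehicle.

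The cation-chloride cotransporters were open at 6 of 7 genes. Slc12a2, the sodium-potassium-chloride cotransporter of basolateral membranes, had wide peaks of 1739 and 1671 bp after dDAVP, against 1714 and 1837 bp with vehicle, with a mean of 1740 ± 70.3 bp (SD over all 4 libraries). The treatments overlapped, and the values lay close together. Slc12a5, the potassium-chloride cotransporter best known from neurons, had peaks of 1532 and 1443 bp after dDAVP, against 1529 and 1480 bp with vehicle. Slc12a4, a more widely distributed member of that group, had a mean of 1054 ± 93.7 bp (SD over all 4 libraries). Slc12a9 was open at both ends, of which the lower-coordinate one is downstream of its listed start. At its lower-coordinate end, which lies within 1 kb of Trip6, the widest peaks were 1715 and 1235 bp after dDAVP, against 2520 and 1045 bp with vehicle, and at its other end 730 and 614 bp after dDAVP, against 532 and 1583 bp with vehicle. The vehicle libraries stood on both sides of the dDAVP libraries at both ends. Slc12a8 had 763 and 801 bp after dDAVP, against 816 and 206 bp with vehicle, at its lower-coordinate end. Slc12a7, a potassium-chloride cotransporter of renal tubules, had end peaks of 86 bp in dDAVP replicate 1 and of 332 and 162 bp in the vehicle libraries, and none in dDAVP replicate 2.

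The sodium/calcium exchangers were open in all libraries at 1 of 3 genes. Slc8a3 had wide peaks at both ends, and its listed start lies near the higher-coordinate one. At the lower-coordinate end the widest were 1962 and 1479 bp after dDAVP, against 1770 and 1511 bp with vehicle, and at the other 1635 and 796 bp after dDAVP, against 1755 and 1958 bp with vehicle. Slc8a1, the exchanger known best from heart and also from distal nephron, had 1 end peak of 124 bp, in vehicle replicate 1. Slc8a2, an exchanger of neurons, had none. Both sodium/phosphate cotransporters, which are expressed in most cells, were open in every library: Slc20a1 had a mean end peak of 1118 ± 50.2 bp and Slc20a2, at an end within 1 kb of Smim19, one of 1256 ± 34.5 bp (SD over all 4 libraries).

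Of the Slc26a anion exchangers 7 of 10 were open in all libraries. The widest was at Slc26a8, a testis carrier, with 1787 and 1868 bp after dDAVP, against 1824 and 1893 bp with vehicle. That end lies within 1 kb of an end of Mapk14, so the value cannot be assigned to Slc26a8. Slc26a11, a chloride and sulfate carrier, had peaks of 1153 and 1335 bp after dDAVP, against 1102 and 813 bp with vehicle, at the end within 1 kb of Sgsh. Slc26a6, an apical chloride/oxalate and chloride/bicarbonate exchanger, had a mean of 1087 ± 42.0 bp (SD over all 4 libraries). Its open end has no end of another protein-coding gene within 1 kb. The sulfate carriers Slc26a1 and Slc26a2 had means of 791 and 752 bp, that of Slc26a1 at the end downstream of its listed starts. Narrower peaks lay at Slc26a5, the motor protein of outer hair cells, with a mean of 351 bp, and at Slc26a10. The Slc26a10 end within 1 kb of B4galnt1 had peaks of 413 and 107 bp after dDAVP, against 426 and 73 bp with vehicle, and its other end had 222 and 171 bp after dDAVP, against 366 and 203 bp with vehicle. Slc26a7, a chloride and bicarbonate carrier of intercalated cells, had no peak at either end in any of the 4 libraries. Slc26a9, a chloride carrier of airway and stomach, had end peaks in vehicle replicate 1 only, 2 in number and the wider of 570 bp. Slc26a3, a chloride/bicarbonate exchanger of the colon, had 2 end peaks each in dDAVP replicate 1 and vehicle replicate 1, the wider of 235 and 105 bp.

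**Figure D1:**
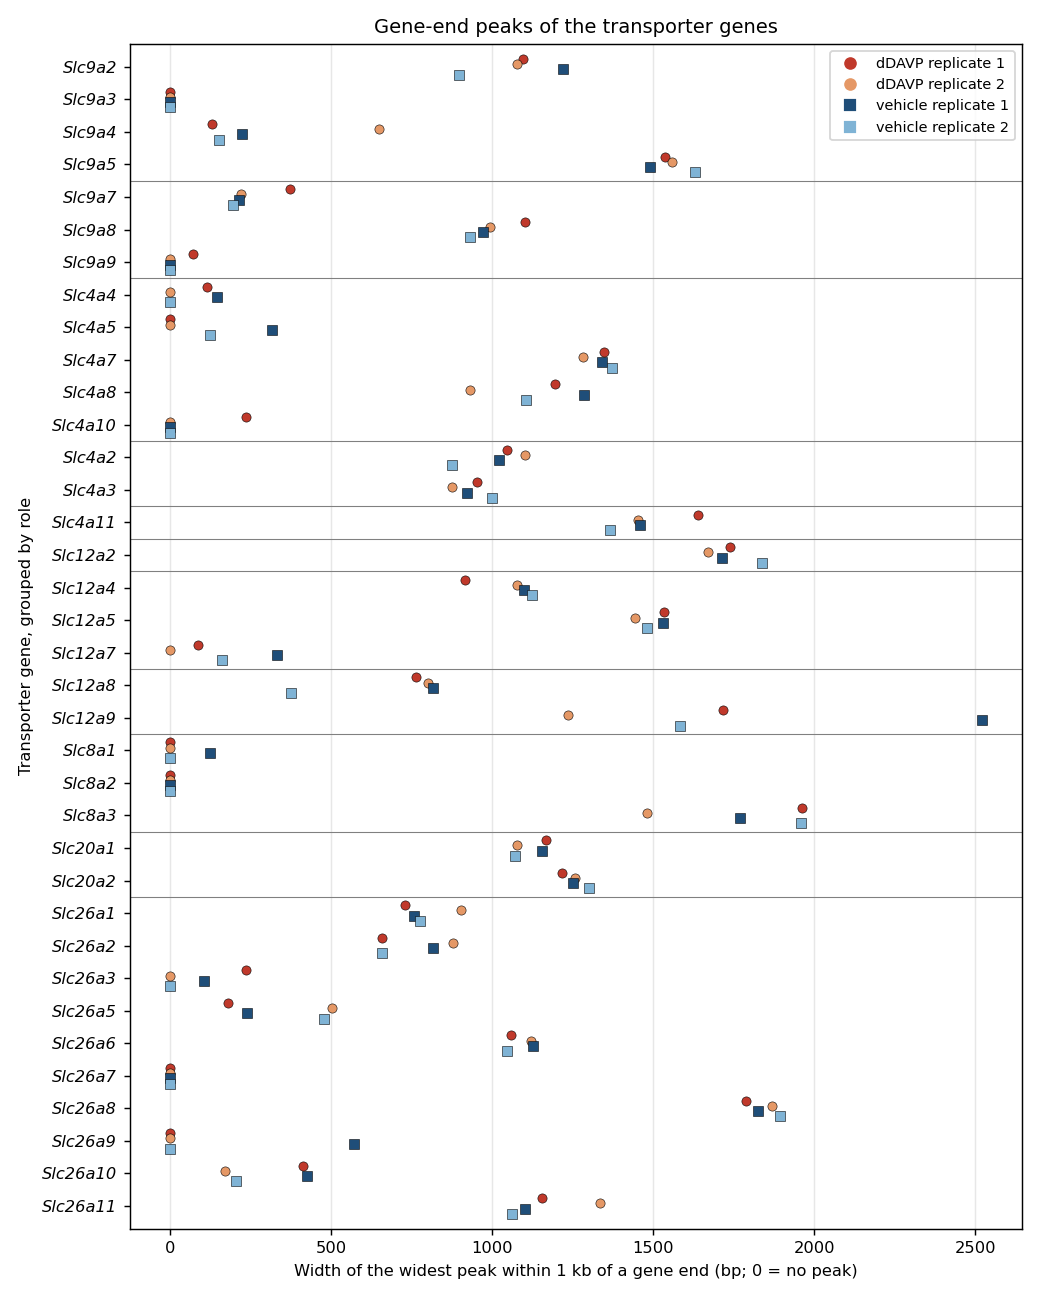
Width in bp of the widest peak within 1 kb of either gene end (x axis, 0 where there is no peak) for 36 of the 39 transporter genes (y axis, grouped by role, grey lines between roles), with circles for the dDAVP libraries and squares for the vehicle libraries. Most open genes have 4 points close together. Slc12a9 has the widest single peak, 2520 bp in vehicle replicate 1, at the end downstream of its listed start.

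At 7 genes (Slc4a3, Slc4a8, Slc8a3, Slc12a8, Slc12a9, Slc26a10 and Slc26a11) the widest end peak lay at different ends in different libraries, and the values plotted for them mix both ends. Across the 28 genes the mean width of the widest peak at either end ran from 250 bp at Slc9a7 to 1843 bp at Slc26a8, with a median of 1080 bp, against a median of 1002 bp over all genes open in every library. Both ends were open in all libraries at 8 of the 28. At 7 of the 28 an end open in all libraries lay within 1 kb of an end of another gene. The 8 genes with end peaks in some libraries only all had one in dDAVP replicate 1 or vehicle replicate 1, the libraries with the longest lists, and none had one in dDAVP replicate 2. The part of list length in these patterns was not tested. Of the 5 genes left out by the rule, Slc4a1, Slc12a3 and Slc26a4 had an end peak in all 4 libraries. Slc12a1 had 1 of 356 bp in dDAVP replicate 1 only, and Slc4a9 had none after dDAVP and peaks of 287 and 181 bp in the vehicle libraries.

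The outermost end of a gene model is not always where its listed transcripts begin. RefSeq start windows on GRCm38.p6 were each of 300 bases (250 before a listed start and 50 after it). They were matched by gene identifier for 28 of 39 transporter genes, with 37 starts. Genes without an entry included Slc4a11, Slc9a2, Slc9a4, Slc12a2, Slc20a2, Slc26a2, Slc26a7 and Slc26a11. At 18 of the 28 genes, or 64.3%, some listed start held a peak in all 4 libraries, against 57.4% of all genes with a listed start. The gene-end and start scores differed at 8 of these genes. Slc4a4, Slc4a5, Slc8a2 and Slc12a7 were open at a start but not at a gene end, and Slc4a7, Slc26a1, Slc26a8 and Slc26a10 were open at a gene end but at no listed start. The other 20 were open by both scores at 14 and by neither at 6, which were Slc4a10, Slc8a1, Slc9a3, Slc9a9, Slc26a3 and Slc26a9.

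The clearest of these cases was Slc4a4. Its first listed start, 93.4 kb inside the gene model, held peaks of 1738 and 1833 bp after dDAVP, against 1439 and 1892 bp with vehicle. The peaks were wide in all 4 libraries, and the treatments overlapped. The second listed start held no peak in any library. The bases upstream of both starts are shown because they belong to 1 gene and differ in the presence of a listed peak. Capitals mark matches to the GC box (GGGCGG, or CCGCCC on the other strand), the CCAAT box (CCAAT or ATTGG) and the TATA box (TATAAA or TTTATA). They also mark the E-box (CACGTG), the short form of the cAMP response element (TGACG or CGTCA) and the AP-1 site (TGANTCA).
Slc4a4 first start, chr5:88887010-88887259, plus strand: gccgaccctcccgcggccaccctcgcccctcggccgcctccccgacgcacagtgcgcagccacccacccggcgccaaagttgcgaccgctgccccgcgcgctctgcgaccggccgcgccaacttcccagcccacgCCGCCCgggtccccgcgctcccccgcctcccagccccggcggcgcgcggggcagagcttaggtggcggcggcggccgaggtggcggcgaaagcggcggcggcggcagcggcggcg
Slc4a4 second start, chr5:89027716-89027965, plus strand: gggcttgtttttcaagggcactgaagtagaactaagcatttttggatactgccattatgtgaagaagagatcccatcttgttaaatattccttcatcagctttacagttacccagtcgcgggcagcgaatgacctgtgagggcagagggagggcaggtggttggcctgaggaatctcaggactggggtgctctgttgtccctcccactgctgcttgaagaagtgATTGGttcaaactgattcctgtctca
The whole window of the first start was 80% G and C and that of the second 48.3%. The first holds 1 GC box and the second 1 CCAAT box in these 250 bases.

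Slc12a7 and Slc8a2 gave the same picture. The listed starts of Slc12a7, 30.6 kb inside its gene model, lay under a peak of 941 and 1099 bp after dDAVP, against 1328 and 1362 bp with vehicle. Both vehicle values were above both dDAVP values. Over the whole region the log2 difference in width was -0.26 (SE 0.28), which did not pass the width test given further on. The start of Slc8a2, 2.23 kb inside the gene model, held peaks of 1056 and 1046 bp after dDAVP, against 1191 and 1039 bp with vehicle, and the treatments overlapped. Their upstream bases are shown as starts open in every library at genes whose ends were not, with the same marks.
Slc12a7, chr13:73763410-73763659, plus strand: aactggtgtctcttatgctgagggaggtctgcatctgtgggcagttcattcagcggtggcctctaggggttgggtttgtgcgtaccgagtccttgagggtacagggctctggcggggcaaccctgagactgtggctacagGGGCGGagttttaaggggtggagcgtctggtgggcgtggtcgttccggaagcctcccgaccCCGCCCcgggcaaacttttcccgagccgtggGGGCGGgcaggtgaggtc
Slc8a2, chr7:16129576-16129825, plus strand: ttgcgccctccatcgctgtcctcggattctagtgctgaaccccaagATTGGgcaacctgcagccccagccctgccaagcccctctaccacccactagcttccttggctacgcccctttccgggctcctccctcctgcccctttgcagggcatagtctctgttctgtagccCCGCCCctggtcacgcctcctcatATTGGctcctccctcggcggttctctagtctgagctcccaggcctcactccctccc
The Slc12a7 stretch holds 3 GC boxes, and that of Slc8a2 holds 1 GC box and 2 CCAAT boxes.

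The start of Slc4a5, 29.8 kb inside its gene model, was also open in every library, with 335 and 348 bp after dDAVP, against 667 and 690 bp with vehicle. By contrast, the listed start of Slc9a3 held a peak in vehicle replicate 1 only, of 374 bp, and that of Slc26a3 held a peak in dDAVP replicate 1 only, of 980 bp. These are the starts of transporters of the proximal tubule and the colon, and they differ in base composition, as the upstream bases with the same marks show.
Slc9a3, chr13:74121163-74121412, plus strand: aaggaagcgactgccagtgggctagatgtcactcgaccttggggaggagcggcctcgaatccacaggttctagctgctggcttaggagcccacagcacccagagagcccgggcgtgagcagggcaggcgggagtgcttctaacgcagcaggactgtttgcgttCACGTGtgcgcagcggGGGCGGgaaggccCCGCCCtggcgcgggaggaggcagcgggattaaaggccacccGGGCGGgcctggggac
Slc26a3, chr12:31437969-31438218, plus strand: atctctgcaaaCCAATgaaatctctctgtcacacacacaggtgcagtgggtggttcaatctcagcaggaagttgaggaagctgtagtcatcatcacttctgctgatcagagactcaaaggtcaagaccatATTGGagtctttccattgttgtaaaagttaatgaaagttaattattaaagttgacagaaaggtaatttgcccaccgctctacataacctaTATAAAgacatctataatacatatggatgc
The Slc9a3 window was 68.7% G and C, with 3 GC boxes and an E-box in the stretch shown, and the Slc26a3 window was 39.3%, with 2 CCAAT boxes and a TATA box.

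**Figure D2:**
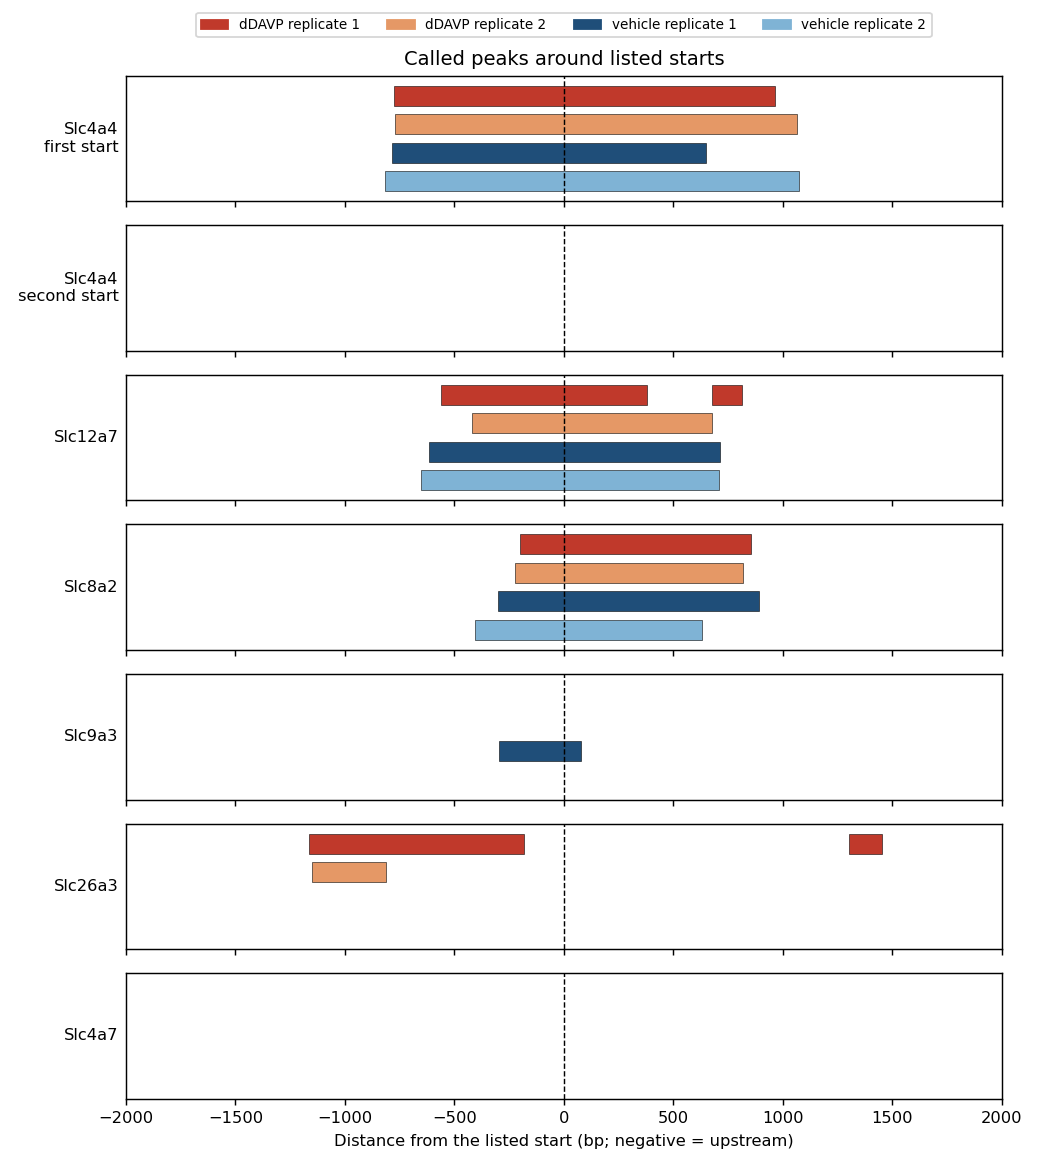
Peaks called in each library (bars, dDAVP rows above vehicle rows in each panel) by distance in bp from the listed start (dashed line; negative is upstream) for Slc4a4, Slc12a7, Slc8a2, Slc9a3, Slc26a3 and Slc4a7. The first Slc4a4 start, Slc12a7 and Slc8a2 are covered in all 4 libraries; the second Slc4a4 start and Slc4a7 are bare, Slc9a3 is covered in vehicle replicate 1 only, and upstream of Slc26a3 only the dDAVP libraries have a peak.

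The genes open at an end but not at a listed start differed in how far apart these lay. The open end of Slc26a10 began 0.137 kb from the listed start and that of Slc26a8 0.74 kb. The open end of Slc26a1, a gene on the minus strand, lay downstream of its listed starts, 5.09 kb from the nearest. The gene model of Slc26a1 overlaps that of Idua. The open end of Slc4a7 lay 15.0 kb from its listed start, where no library had a peak within 1 kb.

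Base composition followed the presence of peaks at the transporter starts as it did at all starts. The 20 transporter starts with a peak in all 4 libraries had a median G and C content of 63.3% (55.3% to 80%), against 48.3% (39.3% to 68.7%) at the 17 others. Over all starts the medians were 62.3% and 48.3%. The ratio of observed to expected CpG pairs had medians of 0.704 and 0.234 at the transporter starts, against 0.786 and 0.223 over all starts. Of 9 motifs searched on both strands, the GC box stood in 16 of the 20 open windows and 3 of the 17 others, and over all starts in 69.1% and 18.3%. The full cAMP response element (TGACGTCA) and the C/EBP site (TTGCGCAA) were in none of the 37 windows, against 2.23% and 0.221% of all 21263 windows. The short form, which the full one contains, was in 4 of 37, against 23.6% of all windows. The CCAAT box was in 16 of 37 (38.2% of all), the TATA box in 8 (12.6%), the E-box in 7 (7.84%), the AP-1 site in 4 (6.99%) and the core of the tonicity element (TGGAAA) in 6 (19.3%). Some of the 37 windows overlap or belong to 1 gene, so they are not independent.

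Inside the genes, away from their ends, the transporter genes held 412 and 317 peaks after dDAVP, against 546 and 301 with vehicle. The median per gene was 6 and 5 peaks after dDAVP and 8 and 5 with vehicle, while over all genes it was 1 and 1 after dDAVP and 2 and 1 with vehicle. The transporter genes are also longer, with a median of 55.4 kb against 17.2 kb. Per 10 kb of gene their medians were 1.20 and 0.896 after dDAVP and 2.04 and 0.985 with vehicle. The medians over all genes were 0.489 and 0.266 after dDAVP and 0.871 and 0.267 with vehicle. The transporter medians were higher in each library, which was not tested. This scale divides by the whole gene length although peaks within 1 kb of an end are left out. It therefore lowers short genes more and does not fully remove gene length. Inside peaks were present in all 4 libraries at 31 of 39 genes. Slc12a2 and Slc26a2 had none in any library, although both had an open end in every library.

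Slc8a3 was the densest of the set. Its 136 kb gene model on chromosome 12 held 89 and 70 inside peaks after dDAVP, against 86 and 76 with vehicle. This is 6.55 and 5.15 peaks per 10 kb after dDAVP and 6.33 and 5.60 with vehicle. Genes of chromosome 12 as a whole had medians of 2.74 and 1.95 after dDAVP and 3.52 and 1.98 with vehicle, so chromosome 12 was itself above the median of all genes. Slc12a8, 147 kb on chromosome 16, followed in number, with 53 and 45 inside peaks after dDAVP, against 63 and 38 with vehicle. The long genes Slc9a9, Slc4a4 and Slc8a1 lay below the transporter medians per 10 kb in every library. Slc9a9 held only 8 and 6 peaks after dDAVP, against 16 and 8 with vehicle, over 561 kb. These long genes were not the sparsest, as Slc12a2 and Slc26a2 held no inside peak in any library.

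**Figure D3:**
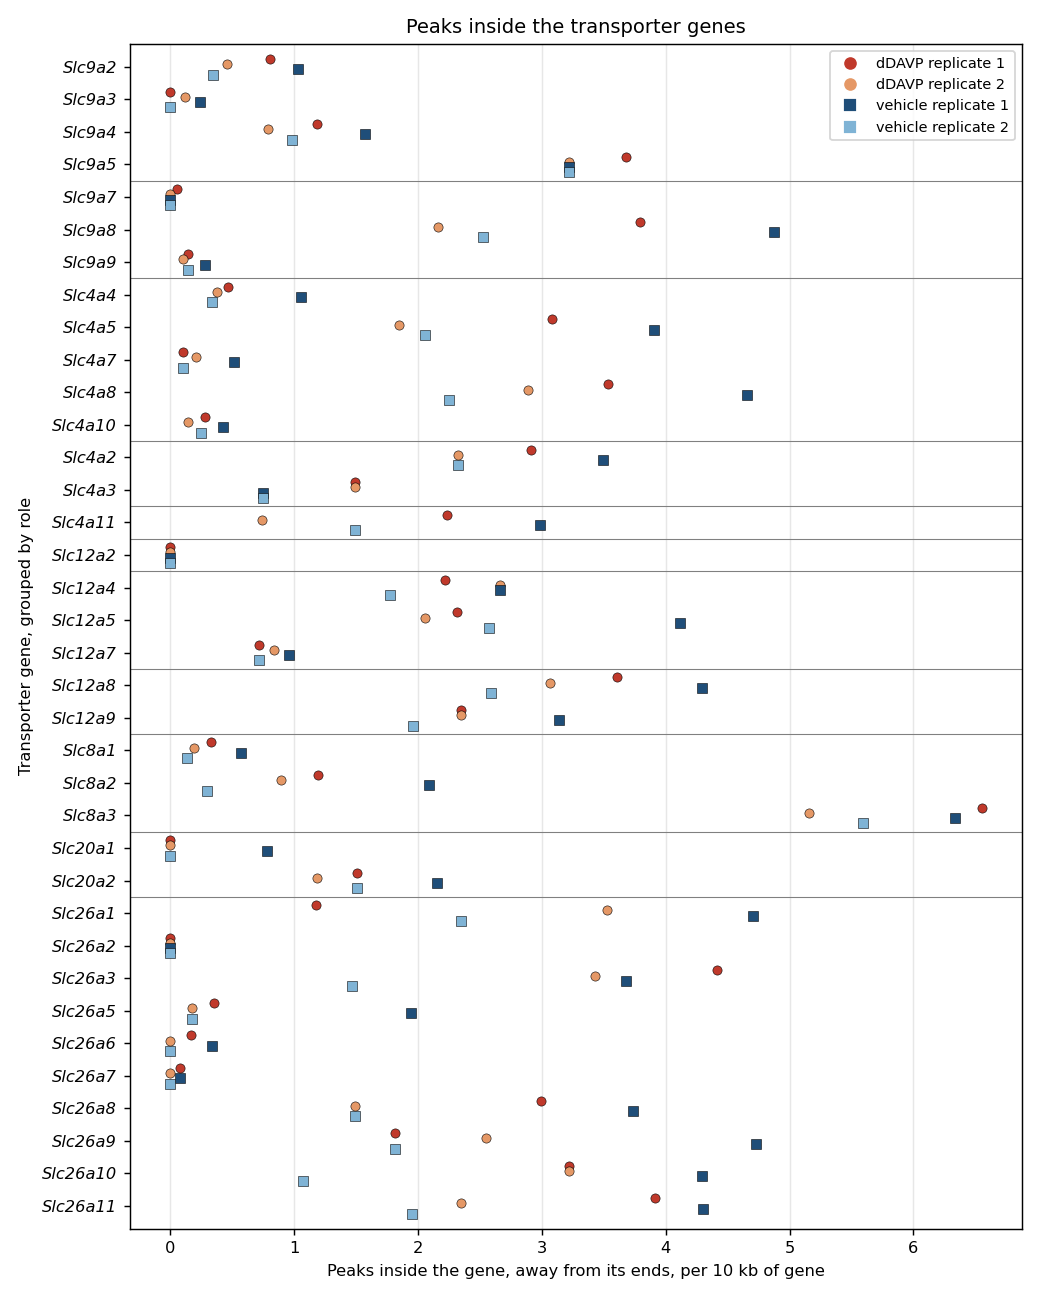
Peaks inside 36 of the 39 transporter genes, away from its ends, per 10 kb of gene (x axis), by gene (y axis, grouped by role), with circles for the dDAVP libraries and squares for the vehicle libraries. Slc8a3 lies above 5 per 10 kb in all 4 libraries, and vehicle replicate 1, the longest list, is the rightmost point at most of them.

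Counted over the gene and its surroundings, regions with a peak in all 4 libraries were most numerous at Slc8a3 (69), Slc12a8 (29), Slc4a8 (27), Slc9a8 (22) and Slc4a2 (19), followed by Slc9a5 and Slc26a11 (17 each). The median was 7 per transporter gene, against 6 over all genes. Per 100 kb of gene and surroundings the medians were 4.15 and 4.66, with the transporter genes lower. Vehicle replicate 1 gave the most peaks of the 4 libraries at 32 of the 39 genes, and at 77.4% of all genes.

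The partners and regulators of these carriers were read from a list of 27 genes (kinases, scaffolds, partner proteins and carbonic anhydrases). Of these, 22 had a gene-end peak in all 4 libraries, which is 81.5%, against 65.0% of all protein-coding genes. This difference was not tested. A further 3 had one in some libraries (Car4, Car12 and Klhl3) and 2 in none (Chp2 and Wnk3). The widths that follow are of the widest peak at either end in each library, so they can mix both ends. Which end it was, and which genes lie near it, is not given for these genes. Widths differed among the kinases: Sgk1 had a mean of 354 ± 261 bp and Wnk2 of 1022 ± 552 bp, while Wnk1 had a mean of 2328 ± 115 bp, Wnk4 1873 ± 115 bp, Oxsr1 1722 ± 163 bp and Stk39 1481 ± 77.2 bp (SD over all 4 libraries). Cul3, the ubiquitin ligase scaffold that acts on Wnk kinases, had a mean of 1575 ± 64.9 bp. The end peak of Chp1, a calcium-binding partner of sodium/proton exchangers, varied least, with a mean of 1272 ± 8.37 bp (SD over all 4 libraries). Slc9b2, a sodium/proton exchanger of another family, had 316 and 320 bp after dDAVP, against 1019 and 1030 bp with vehicle; it is named because its groups stand apart, and no region of the genome passed the width test given further on.

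The comparison of dDAVP with vehicle was first made by presence. All peaks that overlapped by at least 1 bp were joined into regions, of which 1926 lay within 50 kb of a transporter gene. A peak in both dDAVP libraries and in neither vehicle library was found at 38 of them, or 1.97%, against 1.61% of all 560228 regions. The opposite pattern was found at 56, or 2.91%, against 3.35% of all regions. Pairs of libraries that cross the treatments gave counts of the same order or larger: 153 regions were present in both replicate 1 libraries only, 26 in both replicate 2 libraries only, 34 in dDAVP replicate 1 and vehicle replicate 2 only, and 52 in dDAVP replicate 2 and vehicle replicate 1 only. Shared by all 4 libraries were 433 regions, or 22.5%, against 15.7% of all regions, and 916 were seen in 1 library only. The treatment shares thus lay near those of all regions and are not a result about the transporter genes.

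These counts depended on every library, because with 1 library left out a pattern needs 1 peak in that treatment or 1 absence fewer. Without dDAVP replicate 1 or 2, 151 and 280 regions were present after dDAVP only and 139 and 94 with vehicle only. Without vehicle replicate 1 or 2, 112 and 61 were present after dDAVP only and 149 and 524 with vehicle only. The shares of all regions moved likewise, for example to 30.5% with vehicle only without vehicle replicate 2, against 27.2% at the transporter genes.

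**Figure D4:**
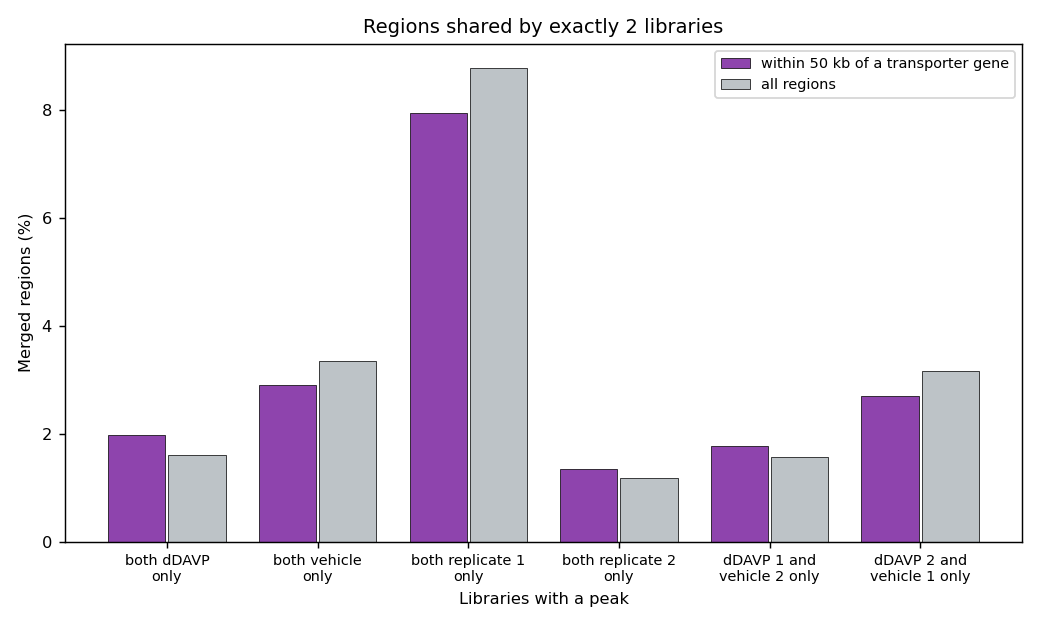
Share in percent of merged regions (y axis) present in exactly 2 named libraries (x axis), for regions within 50 kb of a transporter gene (purple) and all regions (grey). The pairs that follow the treatment, on the left, are 1.97% and 2.91% at the transporter genes, and the tallest pair is that of both replicate 1 libraries.

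Inside the genes or within 1 kb of them, 14 regions at 9 transporter genes were present after dDAVP only and 22 regions at 14 genes with vehicle only, and 5 genes had both kinds. These are 1.77% and 2.77% of the 793 regions there, against 1.56% and 3.36% of all regions in or within 1 kb of a protein-coding gene, so the genes that follow are a description and not a result about the set. Among them, Slc12a8 had 2 dDAVP-only and 6 vehicle-only regions, Slc8a3 had 3 dDAVP-only and 2 vehicle-only, Slc4a8 had 2 dDAVP-only and 1 vehicle-only, and Slc9a4 had 1 of each. Genes with dDAVP-only regions alone included Slc9a5 (2), Slc9a8 and Slc26a3 (1 each). Only vehicle-only regions were seen at Slc4a5 (2), and at Slc4a10, Slc4a11, Slc9a2, Slc9a9, Slc12a5, Slc12a9, Slc26a5 and Slc26a9 (1 each). Most were narrow, and none of these patterns carries an error of its own.

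Among the genes with a listed start, the region at Slc26a3 was the only one within 10 kb of it. It spans chr12:31437056-31438035 and had peaks of 980 and 338 bp in the dDAVP libraries and none in the vehicle libraries. The peak of dDAVP replicate 1 ended 184 bp upstream of the listed start and that of replicate 2 ended 812 bp upstream. Other treatment-specific regions at gene ends included the Slc4a5 end described above. They also included a narrow region at the lower-coordinate end of Slc4a11, with none after dDAVP and 85 and 79 bp with vehicle. That Slc4a11 end held other peaks after dDAVP: its widest were 136 and 306 bp, against 473 and 79 bp with vehicle. The next widest dDAVP-only regions were in Slc4a8, with 305 and 781 bp in one and 478 and 449 bp in another, and in Slc12a8, with 782 and 307 bp. The widest vehicle-only regions were in Slc12a8, with 123 and 857 bp in one and 776 and 454 bp in another, and in Slc26a9, with 744 and 118 bp.

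The number of peaks within 50 kb of the transporter genes summed to 1146 and 858 after dDAVP, against 1408 and 850 with vehicle, a ratio of means of 0.888. Relative to list length the sums were 393 and 417 per 100000 peaks after dDAVP, against 357 and 411 with vehicle, a ratio of 1.05. The treatments overlapped as counted, and per 100000 peaks dDAVP replicate 1 lay below vehicle replicate 2. Neither direction was stable: the ratio as counted was 1.18 without vehicle replicate 1, 1.02 without dDAVP replicate 2 and 1.04 with the widest 205771 peaks of each list, and the ratio per 100000 peaks was 0.986 without vehicle replicate 1. Slc9a2 and Slc9a4 are neighbours on chromosome 1 and share surroundings, so some peaks count for both.

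Gene by gene, 0 of 39 transporter genes had more peaks within 50 kb in both dDAVP libraries than in both vehicle libraries, against 1.24% of all genes, and 1 had fewer, against 6.49%. That gene was Slc20a2, with 24 and 18 peaks after dDAVP, against 35 and 25 with vehicle. An exact two-sided permutation test of 2 libraries against 2 gave p = 0.333, the smallest it can give. Any gene picked because its treatments do not overlap gives this value, so the test adds nothing to the counts. Per 100000 peaks of the library, 7 genes were higher in both dDAVP libraries, against 13.2% of all genes, and 4 were lower, against 9.22%. The higher ones were Slc9a5, Slc9a7, Slc12a5, Slc20a1, Slc26a3, Slc26a6 and Slc26a7, and the lower ones included Slc4a7, Slc20a2 and Slc26a9. Slc26a3 had 17.2 and 15.6 peaks per 100000 after dDAVP, against 15.0 and 12.1 with vehicle.

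Width was the only graded measure, and it was tested with limma on log2 width over the 88231 regions that had a peak in every library. No region was called at a Benjamini-Hochberg adjusted p under 0.05. The number called wider was 0 of 433 transporter regions and 0 of all (0%), and likewise narrower. At an unadjusted p under 0.05 there were 20 of 433 transporter regions, or 4.62%, 11 wider and 9 narrower after dDAVP, against 5.28% of all regions. The smallest adjusted p of a transporter region was 0.87. The median log2 difference in width, dDAVP over vehicle, was 0.05 at the transporter regions and 0.04 over all regions. Both dDAVP values were above both vehicle values at 71 of 433 regions (16.4%, against 12.9% of all), and below both at 65 (15.0%, against 17.5% of all).

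Of the 433 regions, 19 overlapped the window of a listed transporter start. Slc4a5 had the lowest log2 difference among them, with 335 and 348 bp after dDAVP, against 667 and 690 bp with vehicle. That difference was -0.89 (SE 0.31), with a limma adjusted p of 0.945. The groups did not overlap, and its gene end had a peak in the vehicle libraries only, but the width did not pass the test across the genome and presence has no test. Slc4a2 had 1027 and 857 bp after dDAVP, against 686 and 597 bp with vehicle, a log2 difference of 0.63 (SE 0.29, limma adjusted p of 1). The Slc12a8 start had the highest log2 difference, 0.97 (SE 0.66), with 763 and 801 bp after dDAVP, against 816 and 206 bp with vehicle. Its groups overlapped, and vehicle replicate 2 alone was narrow. The start regions of Slc4a8, Slc8a2, Slc9a5, Slc9a8, Slc12a5 (first start), Slc12a9, Slc20a1 and Slc26a6 had log2 differences between -0.04 and 0.19.

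**Figure D5:**
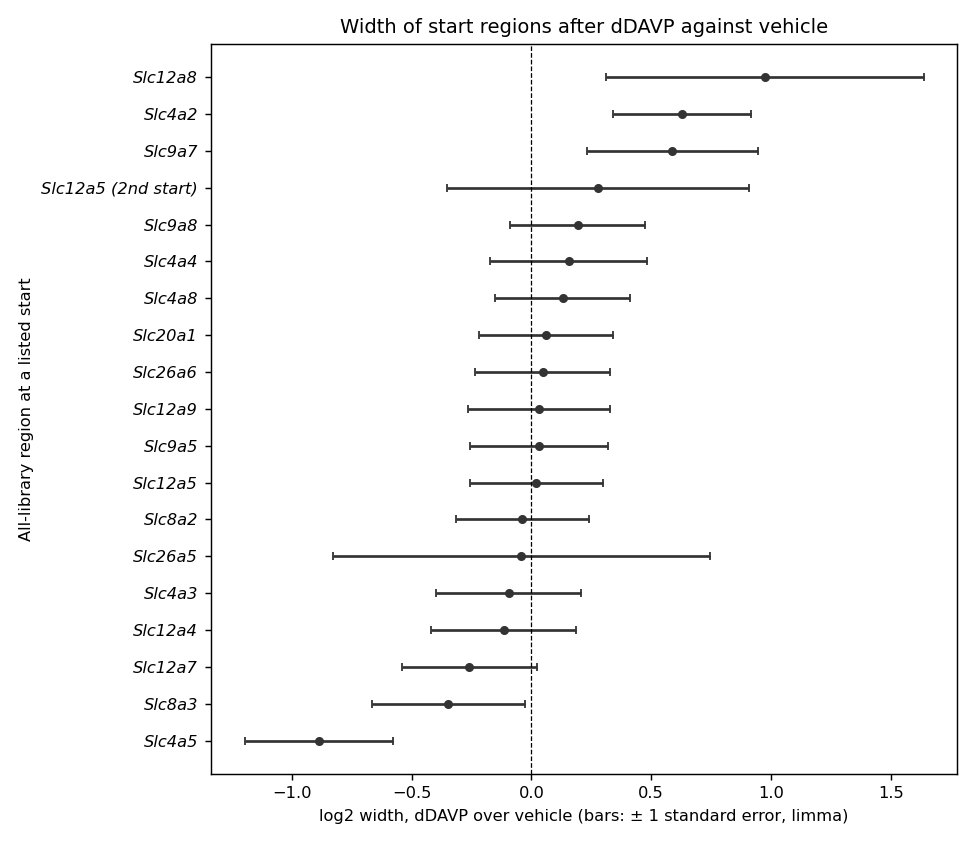
Log2 width of dDAVP over vehicle (x axis; points with bars of ± 1 standard error from limma) for the 19 all-library regions at listed starts of transporter genes (y axis, sorted). Slc12a8, at 0.97, and Slc4a5, at -0.89, lie at the ends, and none has an adjusted p below 0.05.

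Among the other regions a few had lower unadjusted p-values. A region outside Slc12a8, at chr16:33675931-33677032, had 645 and 1079 bp after dDAVP, against 190 and 170 bp with vehicle, a log2 difference of 2.28 (SE 0.40, limma adjusted p of 0.87). A region outside Slc8a3, at chr12:81160985-81162042, had 272 and 290 bp after dDAVP, against 997 and 782 bp with vehicle, a log2 difference of -1.58 (SE 0.30, limma adjusted p of 0.87). Inside Slc4a8, at chr15:100780523-100781454, the widths were 859 and 911 bp after dDAVP, against 429 and 372 bp with vehicle, a log2 difference of 1.22 (SE 0.29, limma adjusted p of 0.87). In each of these the groups did not overlap, and none passed over the 88231 regions tested. They were picked for unadjusted p-values among the lowest of the 433, so their size is no measure of the set.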

How the data were processed

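The authors deposited 1 peak list per library with 3 columns (chromosome, start and end) on mm10, so the unit of each value is a position, with no count, score or depth. Per the submitters' processing notes, cutadapt, Bowtie2, SAMtools, Picard, bedtools and MACS2 were used; their versions, roles and settings (a shift of reads to the cut site among them) were not given in the sources used here. Peaks appear to have been called per library. Reads were paired, of 50 bases, per the labels' protocols.

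The transporter genes and all gene, marker and motif lists were chosen with earlier results of these data known. Gene ends came from a RefSeq gene table and starts and sequences from RefSeq start windows, both on GRCm38.p6. Starts on that table were scored by the 300 bases around them, a measure added after seeing the data. Regions were unions of overlapping peaks, with touching peaks kept apart, and coordinates are 1-based. A region's width in a library is the sum of its peaks there, so it can exceed the width of a single peak. Widths of regions present in all 4 libraries were quantile normalized on the log2 scale and fitted with limma 3.58.1 in R 4.3.3, without replicate as a term, over the whole genome. Other steps used Python 3.11.15, pandas 2.3.3 and NumPy 2.4.6. The joining of peaks and the width fit were tested on simulated data. The simulated widths varied less between replicates than the real ones, so that test does not show which changes the fit could find here. Shares are descriptions with no test.

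Named in full by rule were the genes with the widest gene-end peaks of each family (up to 4), those with no or unequal end peaks, those with treatment-specific regions within 1 kb, and the 6 with the most all-library regions (7 with a tie). Other genes and regions were named after their values were seen. Alternatives changed windows, overlap, peak width, normalization and the replicate term, and left out each library. Symbols with letters after the digits (3 genes, all open in every library) were not counted. Some items that the rule takes are left out of the text and figures.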

Additional observations from a re-analysis of the deposited data

How the results depend on the processing

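Of 68 alternative values, 42 were counts, of which 11 moved by over 1.5 times, and 26 were ratios of peak numbers, all within the spread between replicates of their main value. Of the 26 ratios 7 lay on the other side of 1, so no direction is held for them: inside the genes the ratio as counted (0.861) was 1.03 with the widest peaks and 1.21 without vehicle replicate 1, and the ratio per 100000 peaks (1.04) was 0.995 without dDAVP replicate 2; the other 4 are those within 50 kb given above. The number of transporter genes open at a gene end (28) was 28 and 30 with windows of 0.5 and 2.5 kb, 20 within 1 kb of a listed start, 26 with the widest 205771 peaks of each library, 24 with peaks of no less than their library's median width, 31 with the longer symbols and 28 to 29 with 1 library left out. It was 18 by the 300 bases around a listed start, where only 28 genes could be scored. The number of vehicle-only regions (56) was 35 with peaks of no less than median width and 33 within 25 kb, both of which use fewer regions. Leaving out 1 library gave 61 to 280 dDAVP-only regions and 94 to 524 vehicle-only regions, since the pattern then asks for fewer libraries. With the widest peaks of equal number, dDAVP-only regions (47) outnumbered vehicle-only ones (39), the reverse of the order with all peaks; over all regions the shares were 2.75% and 3.01%.

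No label states that the replicate numbers pair libraries. Deviations of the same-numbered libraries from their treatment means had a correlation of 0.0969 over 88231 regions. The width fit with a replicate block called 0 regions wider and 0 narrower, as the fit without it did, and as did the fits without normalization and on wider regions. Each fit with 1 library left out also called 0, with the lone library of a treatment assumed to vary like the other treatment's. Depth is unknown, and its part in missing peaks was not tested.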
